A study of Mus musculus with 60 samples.

Results

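The comparison is between polyA RNA-seq libraries of epithelial cells taken from the proximal part of the mouse small intestine, 4 GFP-high and 4 GFP-intermediate, chosen by their titles from the 60 libraries of the whole series. All animals were 8 weeks old and carried the Lgr5-2A-eGFP allele, in which eGFP is made together with Lgr5, so both groups come from reporter mice and were told apart by the brightness of the sorted cells. The proximal part is the first of 3 equal parts of the small intestine, and the 4 GFP-negative libraries of the same part are given where they place a level. Crypts were released by chelation, single cells were made with TrypLE, and at least 50000 cells were sorted per fraction. Nothing in the labels says whether the 4 libraries of a group are 4 animals, so the p-values measure only a spread between libraries, taken over all 60 or, where stated, over the 8 compared.

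The epithelium of the small intestine is renewed from stem cells at the crypt base, which carry the R-spondin receptor Lgr5, depend on Wnt signalling and lie between Paneth cells. Their daughters move up the crypt, divide as progenitors under Notch control, and become absorptive enterocytes or secretory goblet, enteroendocrine, tuft or Paneth cells. eGFP is a stable protein in such reporters, so cells that have just left the base can still carry part of it, and a fraction of intermediate brightness is commonly taken as early progeny.

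Total counts were 58485489 to 68281915 in the GFP-high libraries and 55411864 to 95809663 in the GFP-intermediate libraries, with 21409 to 22350 genes detected. Levels are library-size scaled counts (CPM, after TMM scaling), and differences are log2 ratios of GFP-high over GFP-intermediate, given with the standard error of the fit of all 60 libraries and with 4 libraries on each side. Calls are made where the adjusted p is below 0.05 (edgeR's quasi-likelihood test, Benjamini-Hochberg). The libraries with the same number were taken to belong together, from the replicate numbers and the batch column. Xist, the X-inactivation RNA, had 1245, 1.94, 1.05 and 1.78 CPM in GFP-high and 1049.6, 1.03, 1.04 and 0.730 CPM in GFP-intermediate libraries 1 to 4. The Y-linked Ddx3y had 0, 64.1, 47.7 and 54.4 CPM against 0, 53.5, 46.5 and 46.6 CPM. By these RNAs number 1 was female and numbers 2 to 4 were male in both fractions, so sex cannot be told apart from number 1. Xist and Ddx3y do not tell numbers 2 to 4 from each other. The comparison is also given as a paired fit, in which the 8 libraries are modelled with their number as a block.

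On the first principal component of the 12 proximal libraries, which held 80.1% of the variance, the GFP-high libraries scored 39.27, 35.39, 31.45 and 34.22 and the GFP-intermediate libraries 28.36, 14.24, 20.58 and 13.27. The GFP-negative libraries scored -48.17, -67.34, -47.75 and -53.53. The GFP-intermediate cells therefore lay close to the GFP-high cells and far from the GFP-negative cells, and GFP-intermediate library 1 lay nearest to the GFP-high group.

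**Figure D1:**
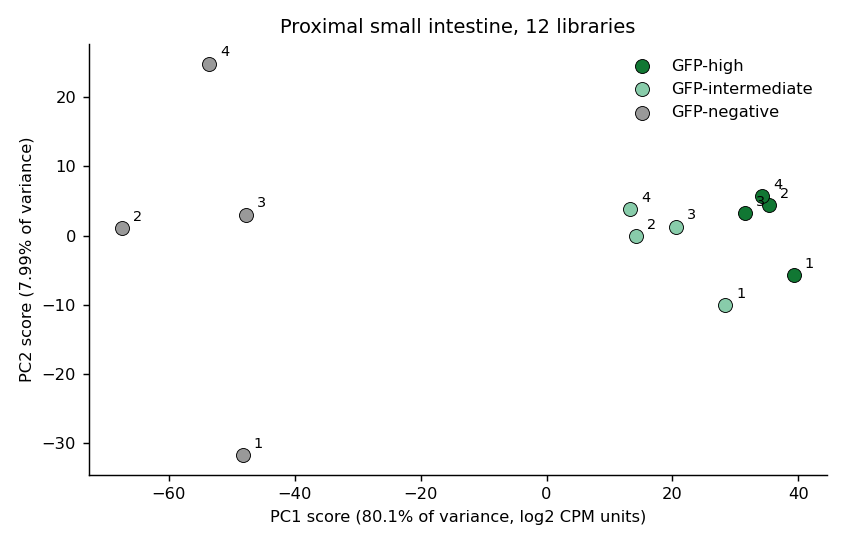
Scores of the 12 proximal libraries on the first (x axis) and second (y axis) principal component of log2 CPM, in dark green for GFP-high, light green for GFP-intermediate and grey for GFP-negative, with the replicate number beside each point. The GFP-high libraries sit at 31.45 to 39.27 on the first component, the GFP-intermediate at 13.27 to 28.36 and the GFP-negative at -67.34 to -47.75.

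Of 23360 genes tested, 105 were called, which is 0.449%: GFP-high cells had 36 (0.154%) at a higher level and 69 (0.295%) at a lower level. That fit takes its spread from all 60 libraries, whose biological coefficient of variation was 42.8%, against 13.9% for the 8 libraries once their number was a block. The paired fit called 4479 genes (19.2%), 1844 higher (7.89%) and 2635 lower (11.3%), and it held 104 of the 105 calls, all in the same direction. With the number as a block over all 60 libraries 316 genes (1.35%) were called, among them all 105. The median log2 difference over all genes was 0.0 in both the fit of 60 libraries and the paired fit. Genes were kept over all groups, so some genes tested have no counts in these 8 libraries and a difference of 0.0. The median is therefore not that of expressed genes alone. Of the 36 genes called higher, 33 had a still lower mean in GFP-negative than in GFP-intermediate cells, and of the 69 called lower, 64 had a still higher mean in GFP-negative cells.

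Leaving out a single library moved the count of calls: 27, 38, 68 and 56 genes were called without GFP-high library 1, 2, 3 or 4, and 160, 27, 43 and 30 without GFP-intermediate library 1, 2, 3 or 4. Without both libraries numbered 1 the fit of 60 called 26 genes, and the paired fit of the remaining 6 libraries called 3496. Lgr5, Gm830, Tnfrsf19, Rgmb, Soat1, Stra6l and Phlda1 among the higher genes described here, and Bpnt1, Nqo1, Pfkp, Chst4, Efnb2, Cyp4f40, Coro2a, Vstm5 and Mdh2 among the lower, were called whichever of the 8 libraries was left out. Of the 48 named genes called with all libraries, 32 lost the call without at least 1 of the 8, and all but Fam124a were called in both paired fits, that of 8 libraries and that of 6.

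**Figure D2:**
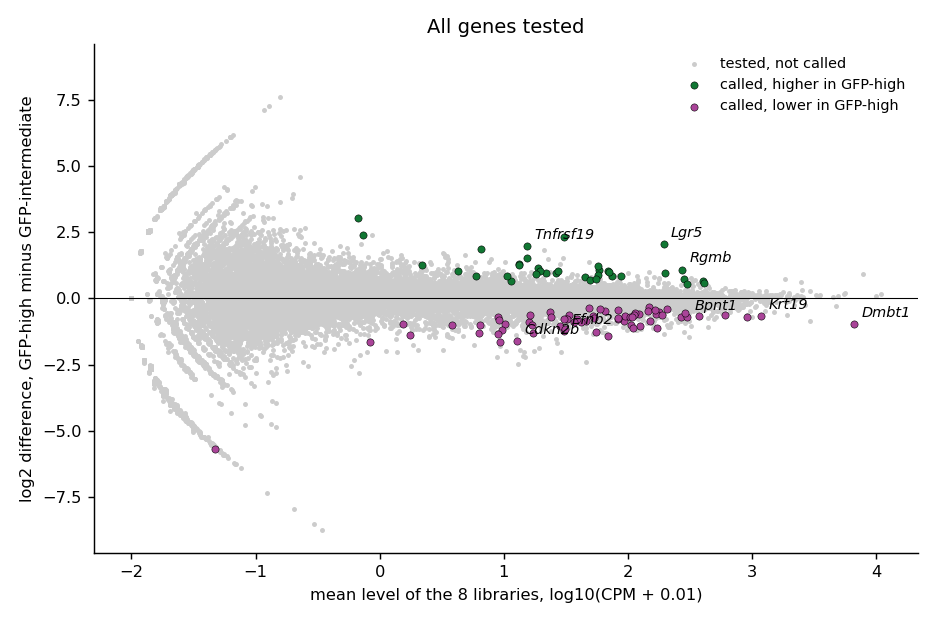
Log2 difference, GFP-high minus GFP-intermediate (y axis), against the mean level of the 8 libraries (x axis, a log10 scale of CPM) for the 23360 genes tested, with genes called higher in GFP-high cells in green, genes called lower in purple and the rest in grey. Lgr5 lies at 2.04 and Dmbt1, the called gene of highest level, at -0.96.

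Lgr5 itself, the gene the sort follows, checks the labels. It had 405, 283, 280.2 and 282 CPM in GFP-high libraries 1 to 4, against 113, 76.1, 55.7 and 59.9 in GFP-intermediate and 1.89, 3.38, 3.07 and 2.36 in GFP-negative libraries. The log2 difference was 2.04 ± 0.27 (edgeR adjusted p = 8.9e-06). Library 1 was the highest in both fractions, and the groups did not overlap.

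Genes of the crypt base stem cell signature followed Lgr5. Of the 32 genes listed, Lgr5 included, 6 were called higher and 0 lower, against 0.154% higher and 0.295% lower of all genes. The paired fit called 30 higher and 1 lower, against 7.89% higher and 11.3% lower of all genes. The median log2 difference was 0.75, against 0.0 over all genes. The sort followed Lgr5, so the part of Lgr5 itself in these values was fixed in advance. The summed level of the list was 20200 to 22500 CPM in GFP-high, 11300 to 13500 in GFP-intermediate and 1620 to 2150 in GFP-negative libraries. In bulk samples such as these, fewer cells of a type and less RNA per cell cannot be told apart.

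Tnfrsf19 (Troy), a Wnt target of the TNF receptor family that marks crypt base stem cells, had 30.9, 25.8, 22.7 and 18.5 CPM in GFP-high and 7.61, 6.09, 5.80 and 5.27 CPM in GFP-intermediate libraries. The GFP-negative libraries had 0.210, 0.275, 0.161 and 0.381 CPM. Its difference of 1.98 ± 0.26 (adjusted p = 8.9e-06 by edgeR) stood beside 2.04 for Lgr5.

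Rgmb, a BMP co-receptor, had 430.4, 404, 345 and 318 CPM in GFP-high and 217, 175, 164 and 147 CPM in GFP-intermediate libraries, a difference of 1.09 ± 0.15 (adjusted p = 8.9e-06). Soat1, which esterifies cholesterol, had 301, 270.4, 232 and 242 CPM in GFP-high and 170.1, 133, 122 and 117 CPM in GFP-intermediate libraries, a difference of 0.95 ± 0.18 (adjusted p = 0.0047). In both genes every GFP-high library lay above every GFP-intermediate library. Lack of overlap was a condition of a rule that named Rgmb. Of all genes tested, 14.7% had no overlap between the libraries, in either direction. Ephb3, a receptor that with its ephrin ligands sorts cells along the crypt, had 119.6, 113, 121 and 103 CPM in GFP-high and 70.95, 60.2, 63.4 and 58.3 CPM in GFP-intermediate libraries (0.85 ± 0.20, adjusted p = 0.027). Cdca7, a DNA methylation cofactor of dividing cells and chosen after its values were seen, had 527, 506, 473 and 447 CPM in GFP-high against 389, 325, 320.4 and 284 CPM in GFP-intermediate libraries (0.57 ± 0.13, adjusted p = 0.021). These 6 genes, Lgr5 included, are all the members called in the fit of 60 libraries.

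Among members called only in the paired fit, and chosen after their values were seen, Olfm4, the most abundant stem cell transcript here, averaged 10346 ± 559.6 CPM in GFP-high and 5439.5 ± 555 CPM in GFP-intermediate cells (SD, n = 4 each). Its difference was 0.93 ± 0.72 in the fit of 60 libraries (edgeR adjusted p = 0.83) and 0.93 ± 0.04 in the paired fit (adjusted p = 8.6e-11). Ascl2, the Wnt-responsive transcription factor of crypt base stem cells, averaged 74.5 ± 17.2 CPM in GFP-high and 44.3 ± 13.3 CPM in GFP-intermediate cells (edgeR adjusted p = 0.4, paired 1.8e-08). Smoc2, a secreted matricellular protein, averaged 382 ± 23.05 and 275 ± 34.8 CPM in the same order (edgeR adjusted p = 0.1, paired 9.8e-07). In all 3 genes the GFP-intermediate libraries lay above the GFP-negative libraries, which averaged 423 CPM for Olfm4, 4.32 CPM for Ascl2 and 49.6 CPM for Smoc2.

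**Figure D3:**
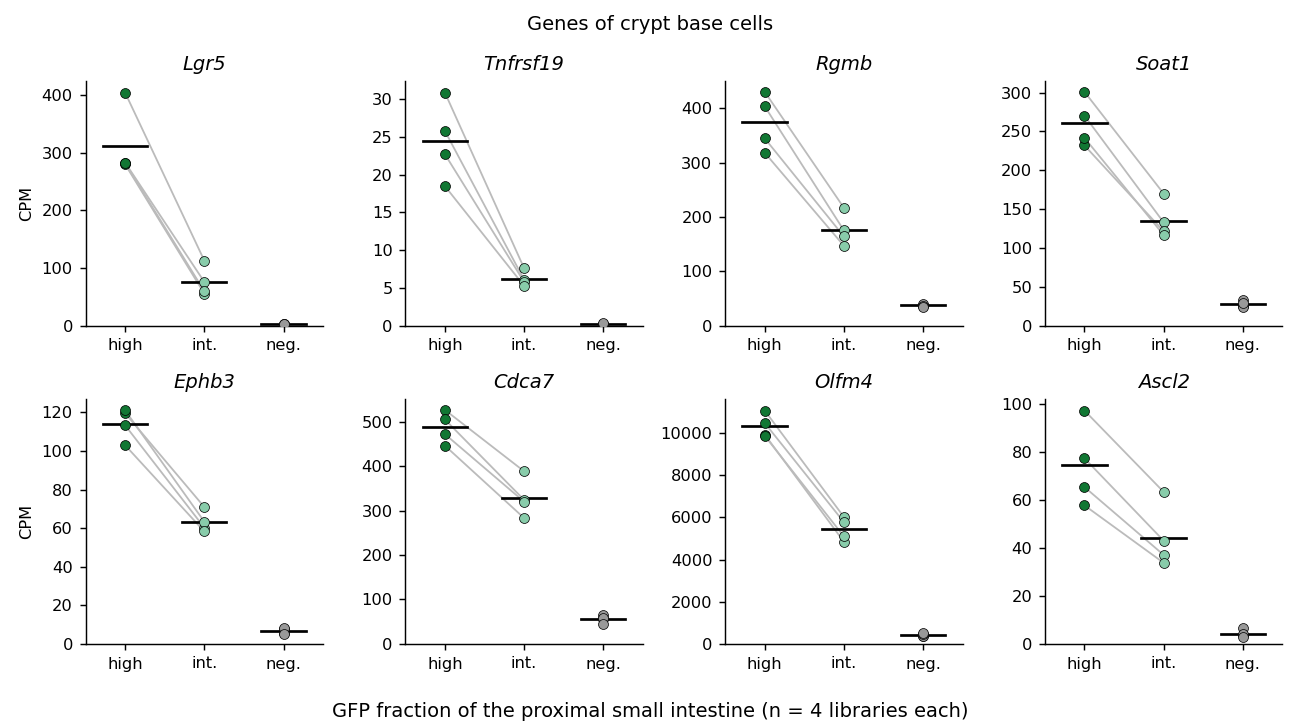
CPM (y axis, from 0) of 8 genes of crypt base cells in the GFP-high, GFP-intermediate and GFP-negative libraries (x axis); points are libraries, grey lines join GFP-high and GFP-intermediate libraries of the same number, and black bars are means of 4. In every panel all 4 lines run downward, and for Lgr5 the means are 313, 76.2 and 2.67 CPM.

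Promoters of called genes were read from RefSeq (GRCm38.p6), where 83 of the 105 called genes matched by symbol, to show the letters upstream of genes that follow Lgr5. The 250 bases before a start are printed for 3 of them, on the strand of the gene. These 3 genes were picked, and only stretches holding a motif marked below were printed. The presence of a motif in them was therefore fixed in advance. Capitals mark the core of the TCF/LEF motif through which Wnt signalling acts (CTTTGA, or its complement on the other strand) and the E-box CAGCTG, a form bound by basic helix-loop-helix factors; the motifs do not overlap. The stretches are chr14:61037988-61038237, minus strand, for Tnfrsf19 (from the start nearer the gene's 3′ end), chr3:30509760-30510009, minus strand, for Mecom, a zinc finger transcription factor, and chr16:21204545-21204794, plus strand, for Ephb3.
Tnfrsf19: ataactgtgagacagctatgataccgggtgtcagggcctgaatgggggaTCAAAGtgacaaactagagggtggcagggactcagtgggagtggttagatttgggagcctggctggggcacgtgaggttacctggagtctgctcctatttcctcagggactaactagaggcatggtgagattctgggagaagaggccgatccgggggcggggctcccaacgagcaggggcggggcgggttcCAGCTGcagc
Mecom: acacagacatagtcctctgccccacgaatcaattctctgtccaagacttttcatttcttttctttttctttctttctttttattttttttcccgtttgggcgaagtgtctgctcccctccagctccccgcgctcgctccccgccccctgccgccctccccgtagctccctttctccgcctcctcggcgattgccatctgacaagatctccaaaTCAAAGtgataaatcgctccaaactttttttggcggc
Ephb3: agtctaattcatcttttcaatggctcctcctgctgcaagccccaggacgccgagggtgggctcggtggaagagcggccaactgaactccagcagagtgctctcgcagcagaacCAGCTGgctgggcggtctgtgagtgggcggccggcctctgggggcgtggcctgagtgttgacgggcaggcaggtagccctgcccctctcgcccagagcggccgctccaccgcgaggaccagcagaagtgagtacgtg
Over the whole promoters, which add the 50 bases after the start, CTTTGA was found on either strand in 10 of 47 promoters of genes called higher (21.3%), 8 of 67 of genes called lower (11.9%) and 16% of all 32851 promoters in the table. CAGCTG, which reads the same on both strands, was found in 9 of 47 (19.1%), 13 of 67 (19.4%) and 16.3%. A match is a run of letters and not a bound site, and genes with several starts are counted at each. Mecom averaged 57.4 ± 1.81 CPM in GFP-high and 32.9 ± 2.48 CPM in GFP-intermediate cells (0.81 ± 0.17, edgeR adjusted p = 0.013).

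The called higher genes outside the stem cell list were of several kinds. Gm830, a long noncoding RNA, had the widest difference among genes of 10 CPM or more, with 56.9, 45.1, 51.2 and 48.7 CPM in GFP-high and 9.03, 10.6, 10.8 and 9.79 CPM in GFP-intermediate libraries (2.33 ± 0.40, adjusted p = 0.001). A second noncoding RNA, Gm45889, averaged 10.2 ± 3.34 CPM in GFP-high and 2.81 ± 1.34 CPM in GFP-intermediate cells (1.86 ± 0.41). In GFP-negative cells they averaged 0.374 and 0.311 CPM.

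Regulators of growth factor and nutrient signalling were among them. Il17rd (Sef), an inhibitor of FGF receptor signalling, had 31.1, 25.05, 24.7 and 25.1 CPM in GFP-high and 15.2, 11.6, 11.98 and 12.8 CPM in GFP-intermediate libraries (1.04 ± 0.22, adjusted p = 0.015). Phlda1, a pleckstrin homology-like protein, had 19.03, 19.4, 20.7 and 15.2 CPM in GFP-high and 6.66, 9.92, 8.07 and 5.91 CPM in GFP-intermediate libraries (1.28 ± 0.24, adjusted p = 0.0021). Unlike the stem cell genes, Phlda1 was about as low in GFP-intermediate cells as in GFP-negative cells, where it averaged 7.09 CPM. Sesn3, a sestrin that restrains mTORC1, averaged 93.5 ± 6.80 CPM in GFP-high, 46.7 ± 1.87 in GFP-intermediate and 42.3 ± 15.3 in GFP-negative cells, with a difference of 1.00 ± 0.24 (adjusted p = 0.033).

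A pair of genes act on vitamin A. Stra6l, a receptor for retinol-binding protein, had 119, 101, 70.7 and 79.6 CPM in GFP-high and 53.7, 49.9, 39.6 and 37.4 CPM in GFP-intermediate libraries (1.04 ± 0.18, adjusted p = 0.0015). Rdh16, a retinol dehydrogenase, had 26.7, 12.98, 14.96 and 20.6 CPM in GFP-high and 10.8, 5.48, 5.68 and 9.51 CPM in GFP-intermediate libraries (1.26 ± 0.30, adjusted p = 0.033). For Rdh16, libraries 1 and 4 were higher than libraries 2 and 3 in both fractions.

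Others act on the cytoskeleton or are secreted. Sorbs2, an actin adaptor, averaged 79.95 ± 11.4 CPM in GFP-high and 37.8 ± 7.98 CPM in GFP-intermediate cells (1.08 ± 0.21). Kif12, a kinesin, averaged 26.1 ± 7.07 and 11.9 ± 3.37 CPM (1.14 ± 0.27), and Fhdc1, a formin, 36.9 ± 1.78 and 18.1 ± 1.41 CPM (1.03 ± 0.26), each with GFP-high given before GFP-intermediate. Ccdc3, a secreted protein, averaged 22.7 ± 4.57 CPM in GFP-high and 7.92 ± 1.51 CPM in GFP-intermediate cells (1.52 ± 0.34). The processed pseudogene Rps24-ps3 averaged 79.8 ± 10.7 CPM in GFP-high against 34.4 ± 6.80 CPM in GFP-intermediate cells, but it is a near copy of a ribosomal protein gene, so its count is uncertain.

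Some genes of the Wnt pathway beyond Lgr5 were higher in the paired fit. Of the 27 R-spondin receptor and Wnt feedback genes, only Lgr5 was called in the fit of 60 libraries. The paired fit called 13 higher, Lgr5 among them, and 1 lower, and left 13 not called. Over all genes it called 7.89% higher and 11.3% lower. The median log2 difference of the list was 0.28, Lgr5 included, and 7 members had a negative difference. Rnf43 and Znrf3, ubiquitin ligases that remove Frizzled receptors, averaged 222 ± 12.4 and 51.6 ± 3.37 CPM in GFP-high, against 134 ± 14.2 and 36.7 ± 2.93 CPM in GFP-intermediate cells. Their edgeR adjusted p-values were 0.076 for Rnf43 and 0.14 for Znrf3, and 4.9e-09 and 2.8e-06 in the paired fit. The receptor Fzd7 had a difference of 0.57 ± 0.17 (edgeR adjusted p = 0.12, paired 7.7e-08). Axin2, the textbook feedback target and chosen after its values were seen, averaged 427 ± 37.9 CPM in GFP-high and 267 ± 34.9 CPM in GFP-intermediate cells (edgeR adjusted p = 0.23, paired 6.7e-09).

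Of the 15 Notch genes, 0 were called, with 5 higher and 1 lower in the paired fit, and the log2 differences ran from -1.41 to 1.14 with a median of -0.04 (7 positive, 8 negative). Among those higher in the paired fit, the receptor Notch1 averaged 149 ± 20.7 CPM in GFP-high and 92.8 ± 15.2 CPM in GFP-intermediate cells (edgeR adjusted p = 0.12, paired 6.4e-09), and its target Hes1 averaged 124 ± 9.79 CPM in GFP-high and 93.5 ± 14.00 CPM in GFP-intermediate cells (edgeR adjusted p = 0.35, paired 3.0e-05). Of the 18 BMP genes tested, of 19 listed, 1 was called higher, Rgmb, and the paired fit called 4 higher and 4 lower. The Notch and BMP counts stand beside the 7.89% higher and 11.3% lower that the paired fit called over all genes. Smad6 and Id3, both induced by BMP signalling, had differences of -0.59 ± 0.24 and -0.54 ± 0.26 (paired adjusted p = 0.00029 and 5.2e-06; neither was called in the fit of 60).

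RNAs of ephrin signalling genes differed in both directions. Of the 13 EphB and ephrin genes tested, of 15 listed, 1 was called higher and 1 lower. The paired fit called 4 higher and 3 lower, and the median log2 difference was 0.08. Shares of all genes were 0.154% higher and 0.295% lower in the fit of 60, and 7.89% and 11.3% in the paired fit. Efnb2, an ephrin-B ligand found on cells higher in the crypt, had 13.8, 20.3, 21.2 and 17.7 CPM in GFP-high and 31.2, 55.5, 37.8 and 46.1 CPM in GFP-intermediate libraries, a difference of -1.23 ± 0.22 (edgeR adjusted p = 0.0015). It averaged 147 CPM in GFP-negative cells, so the ligand and the receptor Ephb3 ran in opposite directions across the 3 fractions. Its relative Efnb1 had a difference of -0.40 ± 0.24, called in the paired fit (edgeR adjusted p = 3.9e-06) and not in the fit of 60 (0.68).

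Cdkn2b, the p15 inhibitor of cyclin-dependent kinases, was lower in GFP-high cells. It had 3.81, 7.30, 6.88 and 7.50 CPM in GFP-high libraries against 11.7, 26.2, 15.9 and 23.4 in GFP-intermediate and 83.6, 123, 72.3 and 88.1 in GFP-negative libraries (-1.60 ± 0.37, edgeR adjusted p = 0.025). GFP-high library 1 was the lowest; that the GFP-high and GFP-intermediate libraries did not overlap was a condition for naming the gene.

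Metabolic and redox enzymes were among the genes called lower. Nqo1, a quinone reductase, had 17.05, 18.01, 21.2 and 18.4 CPM in GFP-high and 33.9, 39.3, 37.9 and 41.8 CPM in GFP-intermediate libraries (-1.03 ± 0.16, edgeR adjusted p = 0.00027). Pfkp, a phosphofructokinase of glycolysis, had 65.5, 69.2, 71.3 and 73.1 CPM in GFP-high and 115, 161, 125 and 159 CPM in GFP-intermediate libraries (-1.01 ± 0.18, adjusted p = 0.0015). Cyp4f40, a cytochrome P450, averaged 19.2 ± 4.73 CPM in GFP-high and 42.95 ± 5.31 CPM in GFP-intermediate cells (-1.16 ± 0.21). Of the genes called lower and chosen after their values were seen, Bpnt1, a phosphatase of sulfate metabolism, had the smallest adjusted p, 0.00023, at 228 ± 24.6 CPM in GFP-high and 370.0 ± 43.4 CPM in GFP-intermediate cells (-0.70 ± 0.11).

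The genes called lower also held proteins of the membrane and the cytoskeleton. Coro2a, a coronin, had 103, 111, 106 and 112 CPM in GFP-high and 219, 263, 217 and 247 CPM in GFP-intermediate libraries (-1.13 ± 0.21, edgeR adjusted p = 0.0021). The annexins Anxa13 and Anxa2, which bind membranes in the presence of calcium, averaged 70.1 ± 18.4 and 81.3 ± 15.4 CPM in GFP-high against 149.8 ± 30.1 and 168 ± 36.9 CPM in GFP-intermediate cells. Slc28a3, a nucleoside transporter, averaged 9.99 ± 1.73 CPM in GFP-high and 24.4 ± 4.94 CPM in GFP-intermediate cells (-1.29 ± 0.28), and Chst4, a sulfotransferase, 6.92 ± 0.717 and 13.5 ± 2.06 CPM (-0.96 ± 0.18). The keratin Krt19 averaged 915 ± 21.8 CPM in GFP-high and 1455 ± 91.8 CPM in GFP-intermediate cells (-0.67 ± 0.15, adjusted p = 0.025). Vstm5 averaged 11.2 ± 1.36 CPM in GFP-high and 20.8 ± 1.35 CPM in GFP-intermediate cells (-0.90 ± 0.18). Apol10a (-1.41 ± 0.34), its pseudogene Apol10c-ps (-1.66 ± 0.41) and Gm3336 (-1.34 ± 0.27) were also called lower, but they have close copies that could share reads.

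Dmbt1, L1cam, Matn2 and Fam124a were among the genes called lower whose level was highest in the GFP-intermediate cells rather than in the GFP-negative cells; they were picked out after their values were seen. Dmbt1, a secreted glycoprotein of mucosal defence, had 3409, 4446, 5112 and 5148 CPM in GFP-high, 7779, 7986, 9979.8 and 9456 in GFP-intermediate and 4162, 5304, 8046 and 8822 in GFP-negative libraries (-0.96 ± 0.24, edgeR adjusted p = 0.046). The adhesion molecule L1cam averaged 73.6 ± 8.37 CPM in GFP-high, 116 ± 12.8 in GFP-intermediate and 86.3 ± 23.3 in GFP-negative cells. The matrix gene Matn2 averaged 4.32 ± 0.415, 8.57 ± 0.893 and 7.07 ± 1.01 CPM in the same order. In Dmbt1, L1cam and Matn2 the GFP-negative libraries overlapped the range of another fraction. Fam124a was detected only at trace level. The 3 called higher genes whose GFP-negative mean was above the GFP-intermediate mean were Picalm, an endocytic adaptor at 492, 315 and 395 CPM in GFP-high, GFP-intermediate and GFP-negative cells, and the low genes Tpbg and Fstl4.

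**Figure D4:**
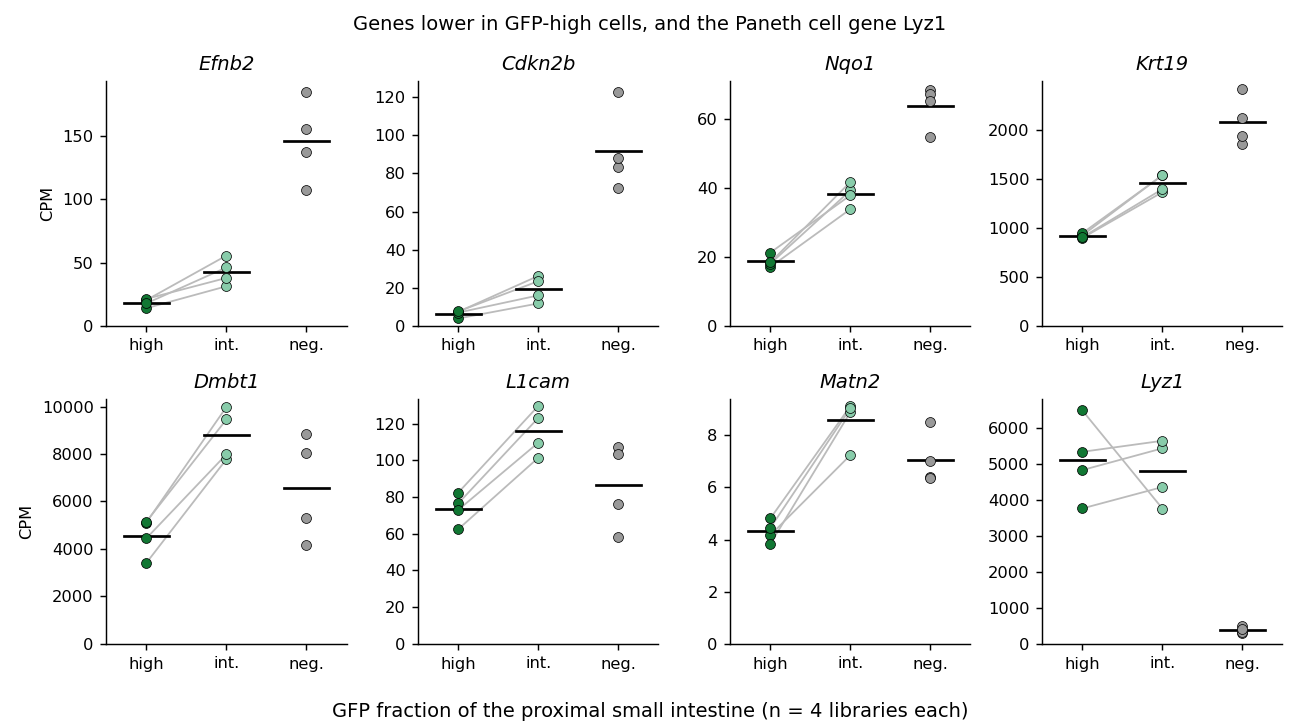
CPM (y axis, from 0) of 7 genes called lower in GFP-high cells and of the Paneth cell gene Lyz1 in the GFP-high, GFP-intermediate and GFP-negative libraries (x axis); points are libraries, grey lines join libraries of the same number and black bars are means of 4. Efnb2, Cdkn2b, Nqo1 and Krt19 climb through all 3 fractions, Dmbt1, L1cam and Matn2 have their highest mean in the GFP-intermediate cells, and Lyz1 does not separate the GFP-high from the GFP-intermediate libraries.

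Genes of absorptive enterocytes were lower in GFP-high cells in the paired fit, while none of them was called in the fit of 60 libraries. The paired fit called 15 of 21 brush border and digestion genes lower and 2 higher (median -0.64), 17 of 22 nutrient transporters lower and 0 higher (median -0.71), and 19 of 25 genes of lipid absorption lower and 1 higher (median -0.58). All 3 medians stood against 0.0 over all genes, of which the paired fit called 7.89% higher and 11.3% lower. The summed brush border level was 3630 to 4340 CPM in GFP-high, 4400 to 7260 in GFP-intermediate and 21600 to 47100 in GFP-negative libraries.

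Myo1a, the brush border myosin, had 356, 374, 378 and 338 CPM in GFP-high and 520.2, 622, 521 and 593 CPM in GFP-intermediate libraries (-0.64 ± 0.18, edgeR adjusted p = 0.093, paired 1.5e-07). Alpi, the intestinal alkaline phosphatase, had 121, 129.9, 232 and 188 CPM in GFP-high and 216, 492, 303 and 585 CPM in GFP-intermediate libraries (-1.25 ± 0.38, edgeR adjusted p = 0.13, paired 3.9e-05). GFP-intermediate libraries 2 and 4 were the highest for Alpi and for Sis, the sucrase-isomaltase gene, which was chosen after its values were seen and had 171, 241, 211 and 213 CPM in GFP-high against 288, 626, 278 and 549 CPM in GFP-intermediate libraries.

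Among transporters, Slc40a1 (ferroportin, the iron exporter) averaged 26.9 ± 7.35 CPM in GFP-high and 65.2 ± 17.8 CPM in GFP-intermediate cells, and Slc11a2, the divalent metal importer, 49.5 ± 5.26 and 66.4 ± 11.5 CPM (paired edgeR adjusted p = 3.4e-05 and 0.00017). Among lipid genes, Mttp, which loads lipid onto apolipoprotein B, averaged 367 ± 101 CPM in GFP-high and 627 ± 178 CPM in GFP-intermediate cells, and Dgat1, the last enzyme of triglyceride synthesis, 156 ± 10.3 and 236 ± 27.7 CPM (paired edgeR adjusted p = 8.3e-06 and 1.2e-06). Of the 22 transcription factors of absorptive progenitors and enterocytes the paired fit called 14 lower and 1 higher. It called 11.3% lower and 7.89% higher of all genes. Hnf4g, an enterocyte nuclear receptor, averaged 100.4 ± 18.2 CPM in GFP-high and 160.3 ± 33.8 CPM in GFP-intermediate cells (paired edgeR adjusted p = 3.0e-07), and Maf averaged 16.6 ± 1.88 and 32.9 ± 7.47 CPM (paired 4.0e-06).

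Goblet cell genes ran the same way: of 25, the fit of 60 libraries called 0, and the paired fit called 21 lower and 1 higher, with a median of -0.54. Agr2, a protein disulfide isomerase needed for mucin, had 94.2, 139.8, 139 and 136 CPM in GFP-high and 145, 211, 284 and 200.2 CPM in GFP-intermediate libraries (-0.72 ± 0.21, edgeR adjusted p = 0.12, paired 4.5e-07). The summed goblet level was 3830 to 4910 CPM in GFP-high, 5820 to 8190 in GFP-intermediate and 37500 to 53800 in GFP-negative libraries. Secretory progenitor genes were split, with 0 of 18 called in the fit of 60 and 4 higher and 7 lower in the paired fit. The shares over all genes in the paired fit were 7.89% higher and 11.3% lower. Sox4 averaged 252 ± 19.9 CPM in GFP-high and 168 ± 21.00 CPM in GFP-intermediate cells (paired edgeR adjusted p = 4.7e-07), whereas Spdef, a goblet and Paneth cell factor, averaged 16.03 ± 1.76 and 23.3 ± 2.16 CPM (paired 0.00019).

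Endocrine transcription factors went in both directions, with 13 of 24 log2 differences positive and 11 negative. Of the negative ones, the progenitor factors Neurog3 and Insm1 had their highest means in the GFP-intermediate cells. Neurog3, which commits cells to the endocrine lineage, had 5.27, 7.35, 7.84 and 6.78 CPM in GFP-high, 9.63, 6.96, 18.5 and 11.3 in GFP-intermediate and 3.13, 1.67, 6.90 and 2.57 in GFP-negative libraries. GFP-intermediate library 3 was well above the rest, and the difference of -0.77 ± 0.47 was called in the paired fit (edgeR adjusted p = 0.0037) and not in the fit of 60 (0.7). Insm1 averaged 7.58 ± 1.19 CPM in GFP-high and 11.8 ± 4.30 CPM in GFP-intermediate cells (paired edgeR adjusted p = 0.0036). GFP-intermediate library 3 was again the highest for Insm1, at 18.1 CPM, against 9.16, 8.94 and 10.9 CPM in libraries 1, 2 and 4. Of the 24 endocrine transcription factors the paired fit called 5 higher and 3 lower. Of the 27 hormone and granule genes tested, of 29 listed, it called 2 higher and 4 lower. Over all genes the paired fit called 7.89% higher and 11.3% lower. The fit of 60 called 0 of either list.

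Paneth and tuft cell genes had higher summed levels in GFP-high and GFP-intermediate than in GFP-negative cells, and their calls between GFP-high and GFP-intermediate cells stand beside the 19.2% of all genes that the paired fit called. Of 29 Paneth genes tested, of 30 listed, 0 were called and the paired fit called 3 higher and 2 lower; their summed level was 10900 to 21500 CPM in GFP-high, 12000 to 21700 in GFP-intermediate and 1280 to 2360 in GFP-negative libraries. Lyz1, the lysozyme of Paneth cells, chosen after its values were seen, had 4838, 6502, 5347 and 3770.0 CPM in GFP-high and 5444, 3769, 5654 and 4366 CPM in GFP-intermediate libraries, which overlap (0.09 ± 0.41, edgeR adjusted p = 1, paired 0.77). The defensin genes in the list are near copies of each other and their single counts are uncertain. Of 29 tuft genes 0 were called, with 3 higher in the paired fit, and the sums were 466 to 850 CPM in GFP-high, 438 to 607 in GFP-intermediate and 192 to 408 in GFP-negative libraries. Dclk1, a tuft cell kinase also chosen after its values were seen, had 101, 59.2, 83.3 and 77.1 CPM in GFP-high and 71.05, 65.3, 56.1 and 71.4 CPM in GFP-intermediate libraries, which overlap (paired edgeR adjusted p = 0.038).

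The calls of cell cycle genes stand beside those of all genes, of which the paired fit called 7.89% higher and 11.3% lower. Of 32 replication genes 0 were called in the fit of 60 libraries and 4 were lower in the paired fit, with a median of -0.05. Of 32 mitosis genes 0 were called, with 4 higher and 2 lower in the paired fit and a median of 0.05. Rrm2, a subunit of ribonucleotide reductase, averaged 87.02 ± 2.38 CPM in GFP-high and 119 ± 10.2 CPM in GFP-intermediate cells (edgeR adjusted p = 0.67, paired 4.0e-06). The mitotic Cenpf averaged 125 ± 14.6 CPM in GFP-high and 103 ± 7.94 CPM in GFP-intermediate cells (paired 0.00033). Mki67, chosen after its values were seen, averaged 658 ± 77.8 CPM in GFP-high, 654 ± 44.98 in GFP-intermediate and 308 ± 131 in GFP-negative cells, with a difference of 0.01 ± 0.27 between the brighter fractions. Ribosome biogenesis genes likewise had 0 of 20 called, and 3 higher and 2 lower in the paired fit.

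Genes of mitochondrial respiration and sterol synthesis were lower in the paired fit by small amounts. That fit called 7.89% of all genes higher and 11.3% lower. All 27 genes of oxidative phosphorylation had a negative log2 difference, between -0.46 and -0.02, with a median of -0.26; 0 were called in the fit of 60 libraries and 23 were lower in the paired fit. Uqcrc1 of complex III had 513, 516, 545 and 528 CPM in GFP-high and 711, 688, 645 and 704 CPM in GFP-intermediate libraries (-0.39 ± 0.10, edgeR adjusted p = 0.059, paired 6.1e-06). Sdhb of complex II averaged 176 ± 9.20 CPM in GFP-high and 241 ± 7.80 CPM in GFP-intermediate cells (edgeR adjusted p = 0.059, paired 6.8e-07). All 20 genes of cholesterol synthesis were likewise negative, with a median of -0.36, 0 called in the fit of 60 and 19 lower in the paired fit; Dhcr7, the last enzyme of the pathway, averaged 55.9 ± 1.44 CPM in GFP-high and 70.5 ± 3.36 CPM in GFP-intermediate cells (paired edgeR adjusted p = 3.9e-05). Of 19 genes of fatty acid oxidation and ketogenesis the paired fit called 16 lower and 1 higher, among them Cpt2 at -0.42.

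Lists of reserve stem cell and antigen presentation genes were mixed, and pan-epithelial genes were mostly lower in the paired fit. Of 21 reserve and regenerative stem cell genes tested, of 23 listed, Krt19 was called lower, and the paired fit called 5 higher and 1 lower. Lrig1, an ErbB inhibitor, averaged 315 ± 14.8 CPM in GFP-high and 222 ± 16.1 CPM in GFP-intermediate cells (edgeR adjusted p = 0.072, paired 1.3e-07), and the transcription factor Sox9 averaged 223 ± 20.2 and 132 ± 19.3 CPM (edgeR adjusted p = 0.095, paired 5.4e-09). Lrig1 and Sox9 are also on the crypt base stem cell list. Of 14 MHC class II and related genes 0 were called, with 4 higher and 4 lower in the paired fit. Over all genes the paired fit called 7.89% higher and 11.3% lower. Of 12 pan-epithelial genes 1, Krt19, was called lower, and the paired fit called 1 higher and 9 lower; Epcam, the surface marker of epithelium, averaged 1481 ± 46.02 CPM in GFP-high and 1648 ± 79.5 CPM in GFP-intermediate cells.

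Markers of other tissues were scarce in both fractions. The 27 leukocyte genes summed to 38 to 57.3 CPM in GFP-high and 37.4 to 57.2 CPM in GFP-intermediate libraries, against 1160 to 5830 CPM in GFP-negative libraries, with 0 called and 1 lower in the paired fit. The 16 stromal, endothelial, neural and muscle genes tested, of 18 listed, summed to 6.94 to 9.21 CPM in GFP-high and 4.71 to 7.37 CPM in GFP-intermediate libraries. The 5 erythroid genes tested, of 7, summed to 0.286 to 1.36 CPM in GFP-high and 0.73 to 0.952 CPM in GFP-intermediate libraries. Of both lists 0 were called in either fit; of these markers 1 stromal gene was at 0 in all GFP-high libraries, and 2 stromal and 1 erythroid gene were at 0 in all GFP-intermediate libraries. Of 22 genes that dissociation can induce, 0 were called in the fit of 60. The paired fit called 8 higher and 1 lower, against 7.89% higher and 11.3% lower of all genes. Jun had 121, 203, 137 and 139 CPM in GFP-high and 57.5, 121, 72.3 and 86.4 CPM in GFP-intermediate libraries (edgeR adjusted p = 0.26, paired 1.3e-08), with number 2 highest in both. The part of dissociation in the results was not tested.

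**Figure D5:**
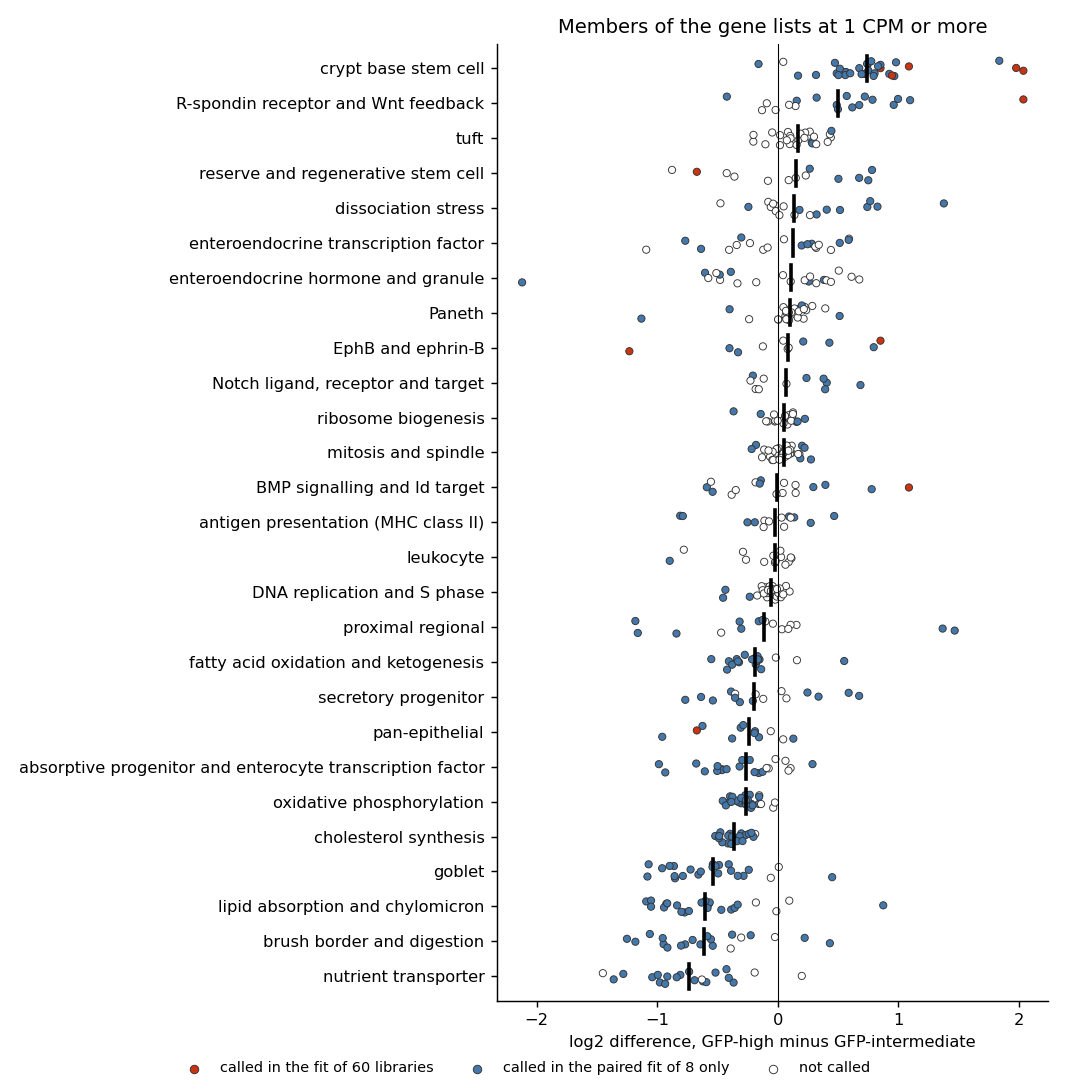
Log2 difference of GFP-high minus GFP-intermediate (x axis) for the members of 27 gene lists (y axis) with at least 1 CPM in either fraction; points are genes, red when called in the fit of 60 libraries, blue when called only in the paired fit and open when not called, and black bars are medians of the members shown. The medians of the crypt base stem cell and Wnt lists lie to the right of 0. Those of the nutrient transporter, brush border, lipid and goblet lists lie to the left.

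The same comparison can be made in the middle and distal parts of the small intestine, from libraries that share no sample with the proximal ones but carry the same numbers 1 to 4, so that animals may be shared. All 36 genes called higher in the proximal part were also higher in the middle and in the distal part, and all 69 called lower were lower in both; over all genes tested the sign was shared by 63.5% with the middle and 64.1% with the distal part. The median log2 difference of the 69 lower genes was -0.77 in the proximal, -0.73 in the middle and -0.76 in the distal part. Lgr5 differed by 2.04 in the proximal, 2.05 in the middle and 1.93 in the distal part, and Rgmb by 1.09, 1.04 and 1.13 in that order.

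In the test of the difference itself, edgeR called 0 genes for proximal minus middle and 0 for proximal minus distal. At an unadjusted p below 0.05 there were 794 and 1426 genes, and the DESeq2 Wald test called 7 and 12. With the spread taken from only the 16 libraries compared, edgeR called 38 genes for proximal minus middle and 30 for proximal minus distal. Rdh16 had a difference of 1.26 in the proximal part against 0.46 in the middle and 0.31 in the distal part, but proximal minus distal was 0.95 ± 0.42 (edgeR adjusted p = 0.74). Rnf43 and Notch1 ran at 0.72 and 0.69 in the proximal part against 0.39 and 0.30 in the middle part, and the goblet factor Spdef at -0.54 against -1.25; none of these 3 differences between parts was called (edgeR adjusted p = 1, 1 and 1). Of the 22 genes listed for their position along the gut 0 were called between the fractions in the fit of 60 libraries. The paired fit, which called 7.89% of all genes higher and 11.3% lower, called 2 of them higher and 7 lower. One of the 7 was Ada, an adenosine deaminase, which had 52.5, 48.9, 108 and 76.99 CPM in GFP-high and 69.3, 280.0, 76.2 and 223 CPM in GFP-intermediate libraries, with GFP-intermediate libraries 2 and 4 far above the others (paired edgeR adjusted p = 0.027).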

How the data were processed

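PolyA RNA-seq counts of 60 libraries (15 groups of 4) were used, of which 8 form the comparison. The deposited counts are whole, unnormalised counts per gene from the authors; STAR, featureCounts of Subread, edgeR and the build mm10 are named, without versions, in the submitters' processing notes. Strandedness and the annotation release are not given in the sources used here. The other deposited column used gives a batch number; in 60 of 60 libraries it is the replicate number. Deposited log2 RPKM, log2 CPM and log2 TPM columns were not used.

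Genes were kept by filterByExpr over the 15 groups (23360 genes, 99.97% to 99.99% of each library's counts), scaled by TMM and fitted with edgeR 4.0.16 (glmQLFit as set by default; prior degrees of freedom 5.43, residual 45; limma 3.58.1, R 4.3.3) over all 60 libraries. Tests were two-sided, with Benjamini-Hochberg adjustment over all genes. Standard errors were taken as the size of the log2 difference over the square root of F. All groups share its estimate of the spread, so a paired fit of the 8 libraries stands beside it.

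Numbers were taken to pair the libraries. Over 8000 genes the deviations of GFP-high and GFP-intermediate libraries of the same number correlated at 0.477 to 0.832. Different numbers correlated at 0.207 at most, with a mean of -0.197. Deviations were taken from the mean of a group's 4 libraries, which by itself pushes that mean below 0 where same numbers correlate. Each of the 4 GFP-high libraries correlated best with its own number. Same numbers correlated at 0.117 to 0.744 in the middle part and at -0.0154 to 0.614 in the distal part, which the block over 60 libraries also uses. The pairing comes from the replicate numbers and the batch column.

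The 29 gene lists, the members and the tests were chosen with earlier results of these data known. Named genes were Lgr5; up to 15 called genes per direction with the largest difference among those whose higher group averaged at least 10 CPM and whose groups did not overlap; and up to 4 members per list with the smallest p, of which a selection is printed. The values of some genes are not reported here. Alternatives were DESeq2 size factors, no filter, the DESeq2 1.42.0 Wald test, the newer quasi-likelihood method, the replicate block, fits of only the libraries compared, a fold of 2 and each library left out. The fits were also run on simulated counts with known changes. For the paired fit the simulated spread was capped and a shift shared by number was built in. The outcome is not reported here and is not used as support. Counting error is small at these depths, and reads carry no molecular identifiers as far as the sources say.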

Additional observations from a re-analysis of the deposited data

Results flagged for a closer look

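In groups of 4 libraries, chance gives an outlying library in about 1 in 20 groups, and 186 groups were examined (the GFP-high and GFP-intermediate libraries of each gene named in the text), of which 13 had one. GFP-high library 1 was far from the other 3 for Lgr5 (404.6 CPM), Il17rd (31.14 CPM), Fzd7 (110.5 CPM), Suox (30.88 CPM), Cdkn2b (3.807 CPM) and Agr2 (94.22 CPM); it was the highest for Lgr5, Il17rd, Fzd7 and Suox and the lowest for Cdkn2b and Agr2. Both libraries numbered 1 stood apart for Xist, with 1245 CPM in GFP-high and 1050 CPM in GFP-intermediate cells, and GFP-intermediate library 1 for Ddx3y, with 0 CPM. GFP-intermediate library 1 was also low for Matn2 (7.242 CPM). GFP-intermediate library 3 was high for Spdef (26.5 CPM), and GFP-intermediate library 4 was high for Sdhb (252.6 CPM) and for Fstl4 (0.6139 CPM).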

How the results depend on the processing

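The count of calls between the fractions differed widely between fits. Against 105 calls (36 higher, 69 lower), DESeq2 size factors gave 117 calls and no filter on low counts 75, of which 45 were lower. The DESeq2 Wald test gave 394 (120 higher, 274 lower), the newer quasi-likelihood method 175 (81 higher, 94 lower), a further requirement of a fold of 2 gave 36 (18 and 18), and the fit of only the 8 libraries 2201 (791 higher, 1410 lower). Over the 8 fits that leave out 1 library the calls ran from 27 to 160, the higher from 11 to 47 and the lower from 14 to 113. Without both libraries numbered 1, an alternative chosen after seeing the data, 26 were called (10 higher, 16 lower). That fit loses 2 of the 8 libraries, which are also the female ones by Xist and Ddx3y, and the cause was not tested.

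With the replicate number as a block, that is with the libraries paired by number, 316 genes were called over all 60 libraries (112 higher, 204 lower), 4479 over the 8 libraries (1844 higher, 2635 lower) and 3496 over the 6 libraries numbered 2 to 4 (1420 higher, 2076 lower), the last also chosen after seeing the data. The block called 1 gene, Suox, higher for proximal minus distal, and 0 for proximal minus middle.

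For proximal minus middle, the DESeq2 Wald test called 7 genes (2 higher, 5 lower) and the fit of the 16 libraries 38 (33 higher, 5 lower). For proximal minus distal, these gave 12 (2 higher, 10 lower) and 30 (25 higher, 5 lower), and leaving out a library gave 0 to 1, the 1 being Gm5485, lower without proximal GFP-intermediate library 1. Of the DESeq2 calls, those with log2 differences beyond 10 in size were genes with counts in few libraries. Suox and Gm5485 were named after their values were seen, and the cause of these differences between fits was not tested.

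Of the 48 named genes called in the fit of 60 libraries, 0 changed direction under any alternative. Among named genes not called, Lyz1 ran from -0.048 (without GFP-high library 2) to 0.21 and was -0.011 without GFP-intermediate library 2. Mki67 ran from -0.073 (without GFP-high library 4) to 0.062, was -0.0042 with the block over 60 libraries, and was -0.022 and -0.013 without GFP-intermediate library 2 and 3.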

Other observations

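Further groups of genes were assembled after their values were seen and are described without a test. Of all genes, the fit of 60 libraries called 0.154% higher and 0.295% lower, and the paired fit 7.89% higher and 11.3% lower. Of 26 genes of the antioxidant response, 4 were called lower and 0 higher in the fit of 60 libraries, and 19 were lower in the paired fit, with a median of -0.32. Srxn1, which repairs peroxiredoxins, had 20.8, 23.2, 41.4 and 31.8 CPM in GFP-high and 33.9, 56.4, 53.6 and 72.1 CPM in GFP-intermediate libraries (-0.88 ± 0.20, edgeR adjusted p = 0.022), and Gpx1, a glutathione peroxidase, averaged 293 ± 20.5 CPM in GFP-high and 459 ± 21.9 CPM in GFP-intermediate cells (-0.65 ± 0.13). Pgd, of the pentose phosphate pathway, averaged 236 ± 13.5 CPM in GFP-high and 344 ± 18.2 CPM in GFP-intermediate cells; the fourth was Nqo1.

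Of 18 genes of glycolysis, 2 were called lower, Pfkp and Ldha, and the paired fit called 13 lower and 1 higher (median -0.35). Ldha, which turns pyruvate into lactate, had 635, 679, 736 and 703 CPM in GFP-high and 1001, 1143, 1121 and 1202 CPM in GFP-intermediate libraries (-0.70 ± 0.15, edgeR adjusted p = 0.016). Of 19 genes of the citric acid cycle, 2 were called lower, and the paired fit called 16 lower and 0 higher (median -0.27). Those called were Mdh2, at 477 ± 46.7 CPM in GFP-high and 733 ± 71.2 CPM in GFP-intermediate cells (-0.62 ± 0.11), and the cytosolic Idh1, at 98.4 ± 15.5 CPM in GFP-high and 149 ± 18.5 CPM in GFP-intermediate cells (-0.60 ± 0.14). Of 12 annexins 2 were called lower, Anxa2 and Anxa13, and 3 were lower in the paired fit, which left 9 not called. The counts of these groups stand beside the 7.89% higher and 11.3% lower that the paired fit called of all genes.

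Casp6, an executioner caspase chosen after its values were seen, averaged 72.2 ± 2.43 CPM in GFP-high and 102 ± 8.46 CPM in GFP-intermediate cells of the proximal part. Its log2 difference was -0.49 there against 0.35 in the distal part, and proximal minus distal was -0.84 ± 0.19 (edgeR adjusted p = 0.57); the DESeq2 Wald test and the fit of the 16 libraries called it.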
